A study of Mus musculus with 6 samples.

Results

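Rab proteins are small GTPases that mark the membranes of a cell and direct the traffic of vesicles between them. A Rab binds GTP with the help of a guanine nucleotide exchange factor (GEF), recruits effectors that move, tether or fuse a vesicle, and is switched off by a GTPase-activating protein (GAP). In phagocytes they are known for guiding phagosomes to lysosomes and for releasing granules. The genes described here are the protein-coding Rab genes of the deposited count table, taken by symbol (Rab, a number and at most 1 letter, with any further digits) after matching Ensembl identifiers to GENCODE M21. There were 59 of them among 45706 gene identifiers. The symbol rule used no measured value.

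RNA-seq counts were available for 6 libraries of mouse bone marrow. Of these, 4 came from marrow cultured in conditioned medium, which is medium taken from tumour cells, here those of the clear cell renal cell carcinoma (ccRCC) lines VpR83, VpR99, VpR126 and VpR2020. Each line gave 1 library. The other 2 came from marrow labelled as in control medium (replicates 1 and 2). By its title, the series asks how the tumour cells of a mouse ccRCC model, which resists combined checkpoint blockade, act on myeloid and T cells. The labels give no strain, age, sex, culture time or batch, and do not say whether libraries came from separate animals, so p-values measure only the spread between these libraries, which may be technical. The design text names fresh marrow as the comparator while the labels name control medium, so culture and medium cannot be told apart. Unexplained tags (Ctrl, T1 and LT2) stand in the column headers of VpR83, VpR99 and VpR126.

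VpR99 was the deepest library with 129120559 counts, and the other 5 held 18629708 to 28055913. Levels are given as CPM, read counts scaled to a common library size by TMM. Genes with a Benjamini-Hochberg adjusted p below 0.05 in edgeR's quasi-likelihood test of 15141 genes are named as called, risen or fallen. Marker lists, chosen with earlier results of these data known, were summed to describe the labelled bone marrow. Summed neutrophil markers lay between 3632 and 18327 CPM under conditioned media, against 84564 and 92139 CPM in the controls. Summed macrophage markers lay between 15278 and 29039 CPM under conditioned media, against 493 and 511 CPM in the controls. Of these sums Gpnmb alone held 11334, 9139, 7642 and 16379 CPM under VpR83, VpR99, VpR126 and VpR2020 medium. It was at 0.867 and 0.987 CPM in the controls. Of the macrophage markers 11 of 12 were called higher and Cd163 was not called, and none of either list was at 0 in any library. Their part in the Rab differences was not tested. Erythroid markers summed to at most 5.11 CPM under conditioned media, with Slc4a1 and Car1 at 0 in all 4, against 2432 and 5706 CPM in the controls. Markers of B cells (6 of 8) and of T and NK cells (8 of 8) were also called lower. In bulk RNA, fewer cells of a type and less RNA per cell cannot be told apart, so every difference below is one of the whole sample.

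Summed over the family, Rab transcripts were more abundant under conditioned medium, a sum in which the most counted genes weigh most. The 59 genes took 0.469%, 0.460%, 0.455% and 0.479% of the counts in the VpR83, VpR99, VpR126 and VpR2020 libraries, against 0.353% and 0.368% in control replicates 1 and 2. These shares do not depend on TMM scaling, and the groups did not overlap. Of the 59 genes, 50 had enough counts to be tested, of which 22 were called higher, 7 lower and 21 not called. Called genes thus made up 58.0% of the tested Rab genes, beside 42.2% of all genes tested. The higher calls made up 44.0%, beside 22.5% of all genes, and the lower calls 14.0%, beside 19.7%. The median log2 fold change of the 50 was 0.38, beside -0.01 for all genes. Groups did not overlap for 37 of the 50 (74.0%, beside 65.3% of all genes). Conditioned lay above control in 26 of the 50 (beside 32.0% of all genes) and below it in 11 of the 50 (beside 33.3%). Leaving out 1 control lowered the counts to 9 higher and 4 lower (without replicate 1) or 10 higher and 3 lower (without replicate 2). Of the 29 calls, 11 held in all 14 alternative settings, which were Rab7b, Rab14, Rab7, Rab8b, Rab1a, Rab34, Rab31, Rab12, Rab30, Rab4a and Rab37. Another 8 were lost only without a control, namely Rab22a, Rab13, Rab42, Rab3d, Rab32, Rab5c, Rab10 and Rab5a, with adjusted p up to 0.054, 0.078, 0.075, 0.063, 0.06, 0.088, 0.13 and 0.067 in that order. Under library-total or upper-quartile scaling, 17 were called higher and 11 or 10 lower, while the median of all genes moved by -0.24 and -0.21.

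**Figure D1:**
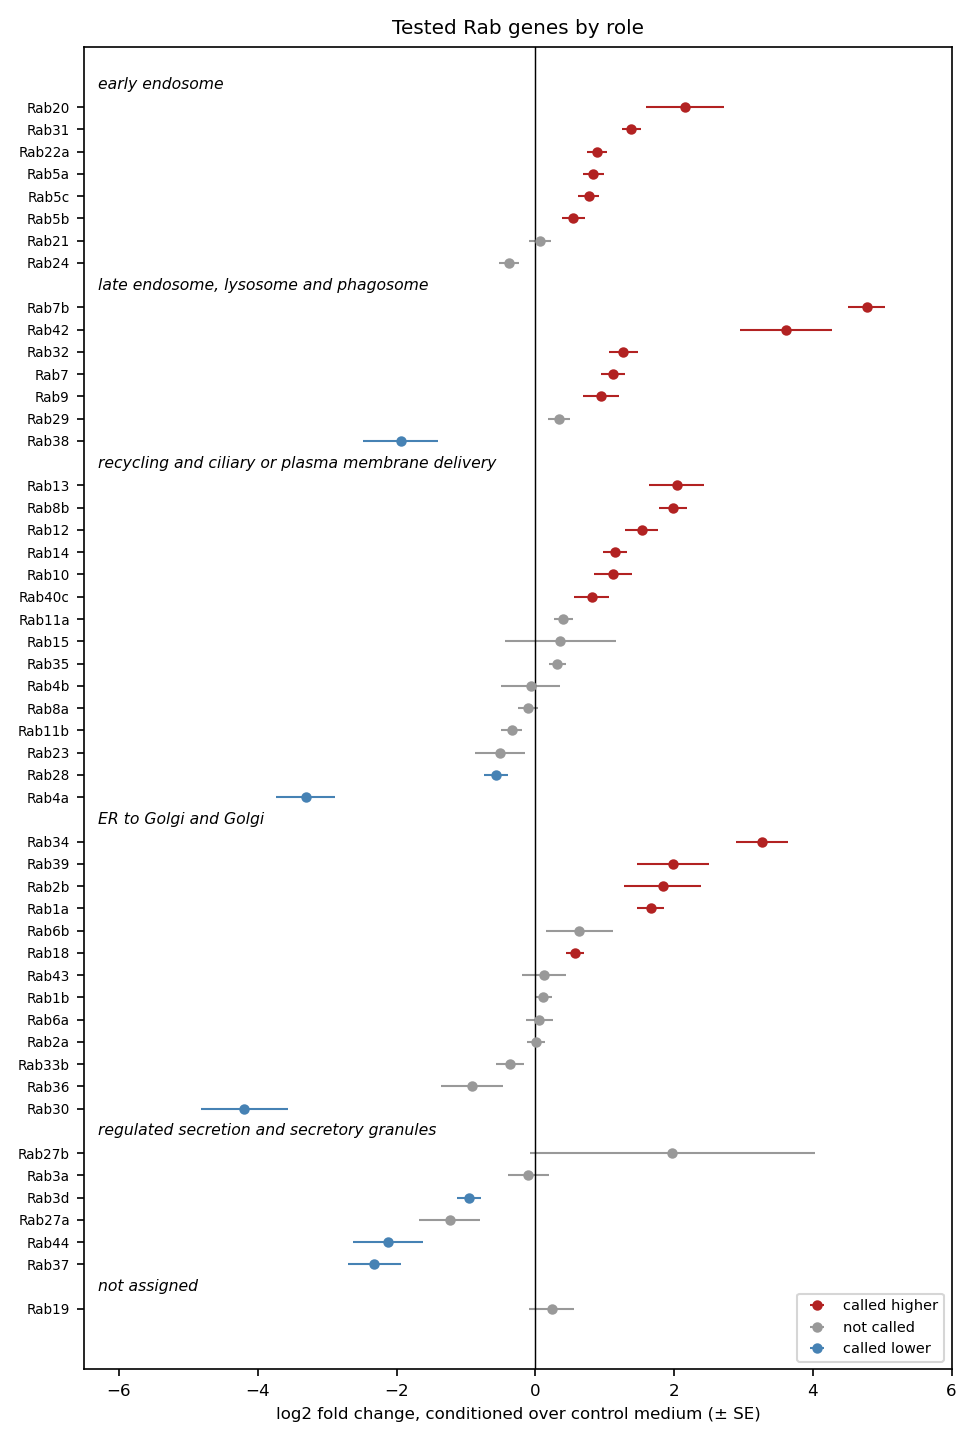
Log2 fold change of conditioned over control medium (x axis, log2 units) for the 50 tested Rab genes, grouped by role down the page; bars are SE and colours give the call. The 6 red early endosomal genes run from Rab20 at 2.16 to Rab5b at 0.55. The secretory group holds 3 genes in blue (called lower) and none in red (called higher), with Rab27b not called at 1.97.

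The largest rise was that of Rab7b, and its paralog Rab7 rose far less. The coding starts of both are therefore shown, with those of a second pair, Rab8b and Rab8a. Each line gives the first 90 coding bases 5′ to 3′, from the GENCODE M21 transcript sequences (GRCm38), and capitals mark bases that differ from the paralog in a pairwise alignment.
Rab7b: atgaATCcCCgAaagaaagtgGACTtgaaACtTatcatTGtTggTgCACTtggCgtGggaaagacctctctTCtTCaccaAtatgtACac
Rab7: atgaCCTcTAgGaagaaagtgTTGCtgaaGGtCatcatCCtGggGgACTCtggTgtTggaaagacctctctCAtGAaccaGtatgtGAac
Rab8b: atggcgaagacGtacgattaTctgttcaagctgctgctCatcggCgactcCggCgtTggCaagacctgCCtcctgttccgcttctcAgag
Rab8a: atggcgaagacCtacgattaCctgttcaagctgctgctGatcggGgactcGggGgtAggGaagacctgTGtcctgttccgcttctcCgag
Rab7b lies on chromosome 1, Rab7 on chromosome 6, Rab8b on chromosome 9 and Rab8a on chromosome 8. In these stretches 30 of the 90 bases differ between Rab7b and Rab7, and 11 between Rab8b and Rab8a. Over the aligned coding sequences, identity was 62.2% for Rab7b and Rab7 and 77.4% for Rab8b and Rab8a, with longest identical runs of 18 and 17 bases. Among the main transcripts of the 59 genes, only Rab11b shared any 50-base stretch with another Rab gene of the set (0.35% of its stretches), so the paralogs differ throughout at that length. Read length is not given in the sources used here. More than 20% of the 50-base stretches of 7 genes also occurred in another annotated gene, and their single values are uncertain. For Rab4b and Rab43 the other gene lies on the same strand (80.3% and 90.4% of the stretches). For Rab2b, Rab6a, Rab20, Rab24 and Rab33b it lies mostly on the opposite strand. The library kit was stranded, but the strand setting of the counting is not given in the sources used here.

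Genes of the late endosome, lysosome and phagosome were mostly higher under conditioned medium. Among the 7 tested there were 5 rises (71.4%, beside 22.5% of all genes) and 1 fall (14.3%, beside 19.7%), and 1 gene was not called, with a median log2 fold change of 1.12. Rab7b, which is known in mouse macrophages for sorting from late endosomes and for damping Toll-like receptor signals, had 216, 173, 157 and 152 CPM under VpR83, VpR99, VpR126 and VpR2020 medium (the order used in all sentences below), against 7.3 and 5.4 CPM in control replicates 1 and 2. Every conditioned library was above 150 CPM and both controls were below 8 CPM. The log2 fold change was 4.78 ± 0.27 (SE; adjusted p = 0.00023), a 27.4-fold rise. The gene spans chromosome 1, 131688695 to 131715439 on GRCm38 (GENCODE M21).

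Rab7, the regulator of late endosome and lysosome fusion, had 525, 527, 504 and 632 CPM under conditioned media, against 253 and 250.2 CPM in the controls. VpR2020 was the highest, and all 4 lay above the nearly equal controls (1.12 ± 0.17, adjusted p = 0.0036). Rab32, which acts on lysosome-related organelles and in the defence of macrophages against bacteria, had 186, 173, 182 and 255 CPM under conditioned media, against 75.9 and 89.1 CPM in the controls (1.27 ± 0.21, adjusted p = 0.0052, range 4.5e-06 to 0.06 over the alternatives). Its near relative Rab38, known from melanosomes and lung lamellar bodies, went the other way, with 0.952, 1.3, 3.68 and 1.6 CPM under conditioned media, against 6.9 and 7.47 CPM in the controls (-1.94 ± 0.54, adjusted p = 0.028). All 4 conditioned libraries were below both controls, with VpR126 the highest of the 4. Rab38 lost its call without either control, VpR99 or VpR2020 (adjusted p 0.0024 to 0.13 over the alternatives). Rab9, which returns receptors from late endosomes to the Golgi, had 37.7, 33.7, 43.9 and 59.5 CPM under conditioned media, against 24.1 and 21.3 CPM in the controls (0.94 ± 0.26). Its call was lost without either control and under both other scalings (adjusted p 0.007 to 0.16). Rab42, a little studied relative of Rab39, had 87 counts over the conditioned libraries and 2 over the controls, a ratio of pooled CPM of 11.6 (exact 95% interval 3.11 to 97.3, counting error only). Rab29, which acts at the trans-Golgi and on stressed lysosomes, was not called (0.34 ± 0.16, adjusted p = 0.13).

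The genes of early endosomes were higher or did not pass the test. Among the 8 tested there were 6 rises (75.0%, beside 22.5% of all genes) and no fall (beside 19.7%), and 2 genes were not called, with a median of 0.80. These shares rest in part on the listing, as Rab20, Rab24 and Rab31 are given other roles below. Of the 6 rises, only that of Rab31 held in all 14 alternatives. All 3 Rab5 genes rose, which encode the regulators of early endosome fusion. Rab5c was the most abundant of them, with 328, 373, 369 and 313 CPM under conditioned media, against 208 and 198 CPM in the controls (0.77 ± 0.15, adjusted p = 0.0092). Rab5a had 62.4, 60.4, 60.2 and 63.3 CPM under conditioned media, against 39.1 and 29.9 CPM in the controls (0.83 ± 0.15, adjusted p = 0.0072). Its conditioned libraries lay closer to each other than the controls did. Rab5b had 142, 124, 165 and 163 CPM under conditioned media, against 96.2 and 107 CPM in the controls (0.55 ± 0.17, adjusted p = 0.04), the smallest of the higher calls. It was the least stable of the trio, losing its call in 7 of 14 alternatives, both scalings above included (adjusted p 0.019 to 0.24).

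Rab31, a regulator of traffic between the trans-Golgi and endosomes, had 264, 254, 234 and 244 CPM under conditioned media, against 94.4 and 96.2 CPM in the controls. It was among the most even rises, the lines spanning 0.18 log2 units beside a log2 fold change of 1.38 ± 0.14 (adjusted p = 0.0011). Its relative Rab22a, an early endosomal Rab, had 80.7, 69.3, 80.3 and 83.9 CPM under conditioned media, against 41.2 and 43.7 CPM in the controls (0.89 ± 0.14). Rab20, known for phagosome maturation in macrophages, had 23.5, 18.4, 64 and 36.4 CPM under conditioned media, against 8.8 and 7.1 CPM in the controls (2.16 ± 0.56, adjusted p = 0.023). All were above the controls, but VpR126 held 1.76 times the CPM of the next line. The call was lost without either control and by voom (adjusted p 0.00022 to 0.14). Rab21, which acts on integrin endocytosis, and Rab24, linked to autophagy, were not called (0.066 and -0.38). Of the exon bases of Rab24, 62.4% overlap Prelid1 on the opposite strand. It was called lower under both other scalings and without VpR99 (adjusted p 0.016 to 0.29).

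**Figure D2:**
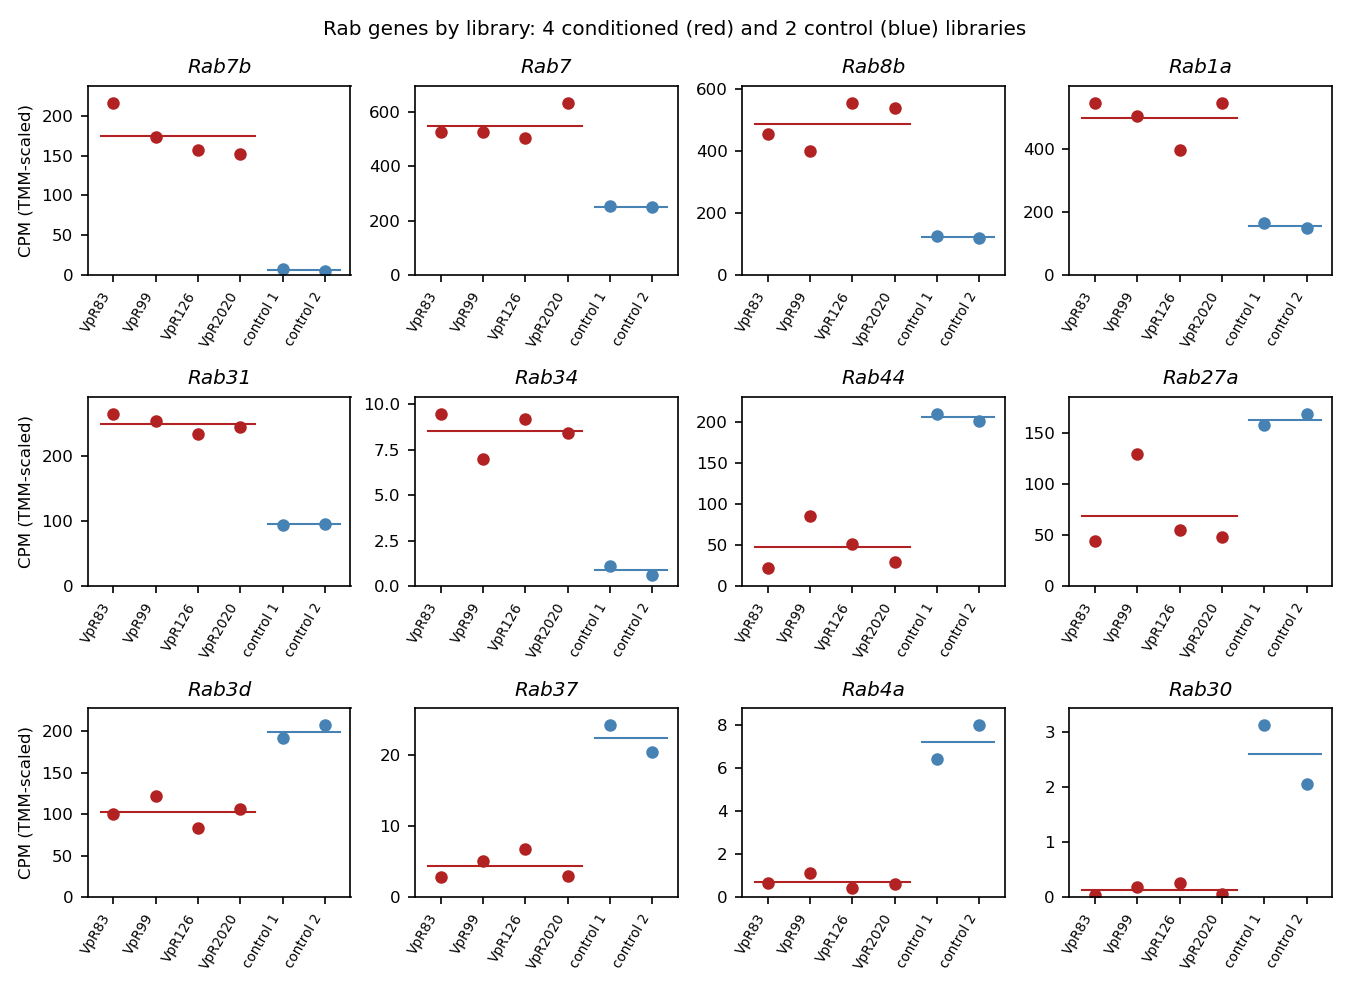
CPM (y axis, linear from 0, TMM-scaled) in each library (x axis) for 12 Rab genes; red points are the 4 conditioned libraries, blue points the 2 controls, and lines the group means. Rab7b lies above 150 CPM in all red points and below 8 CPM in both blue ones, while Rab44 and Rab27a have their highest red point in VpR99.

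Among Rabs of recycling and delivery to the cell surface, 15 genes were tested, with 6 rises (40.0%, beside 22.5% of all genes), 2 falls (13.3%, beside 19.7%), 7 not called and a median of 0.36. Rab8b, a regulator of exocytic membrane delivery, had 456, 399.6, 554 and 537 CPM under conditioned media, against 126 and 120.0 CPM in the controls (1.98 ± 0.20, adjusted p = 0.0012). Each conditioned library held over 3 times the CPM of either control. Its paralog Rab8a had 133, 163, 135 and 138 CPM under conditioned media, against 152 and 154 CPM in the controls, and the groups overlapped (-0.11 ± 0.14, adjusted p = 0.56). Rab14, which works between the Golgi and early endosomes and on phagosomes, had 312, 259, 254 and 327 CPM under conditioned media, against 126 and 134 CPM in the controls (1.15 ± 0.17, adjusted p = 0.0037). Rab10, which carries Toll-like receptor 4 to the surface of macrophages, had 131, 116, 213 and 138 CPM under conditioned media, against 73.4 and 64.1 CPM in the controls (1.12 ± 0.28, adjusted p = 0.019). VpR126 was the highest of the 4, at 1.54 times the next, and all 4 lay above the controls. Rab12, which sends recycling receptors to lysosomes, and Rab13, known from epithelial junctions, rose by 1.53 ± 0.24 and 2.04 ± 0.40. Rab12 had 42.8, 37.3, 61.4 and 51.1 CPM under conditioned media, against 16.6 and 16.6 CPM in the controls. Rab13 was lower in level, with 9.99, 7.37, 16 and 15.4 CPM under conditioned media, against 2.77 and 3.15 CPM in the controls. Rab40c, an adaptor of a ubiquitin ligase, rose by 0.81 ± 0.25, a call lost in 7 of 14 alternatives (adjusted p 0.018 to 0.24).

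Rab4a, the regulator of fast recycling from early endosomes, fell. It had 0.659, 1.13, 0.422 and 0.609 CPM under conditioned media, against 6.43 and 7.99 CPM in the controls (-3.31 ± 0.42, adjusted p = 0.0022), a 9.89-fold drop that held in all 14 alternatives. Rab4b, its paralog, had 2.12, 1.73, 2.7 and 1.11 CPM under conditioned media, against 2.27 and 1.74 CPM in the controls, and was not called (-0.064, adjusted p = 0.91). Rab11a, the Rab of the slow recycling endosome, had 73, 78.9, 64.6 and 73.1 CPM under conditioned media, against 56.9 and 52.8 CPM in the controls. Its groups did not overlap and it just missed the threshold (0.40 ± 0.14, adjusted p = 0.054). It was called by DESeq2 and without VpR126 (range 0.028 to 0.39). Rab11b lay the other way, with 91.9, 80.8, 109 and 91.7 CPM under conditioned media, against 115 and 121 CPM in the controls (-0.34 ± 0.15, adjusted p = 0.12). It was called lower under upper-quartile and library-total scaling and without VpR126 (range 0.02 to 0.36). Rab28, known from cilia, had 28, 32.9, 23.1 and 30.5 CPM under conditioned media, against 42.4 and 42.7 CPM in the controls (-0.57 ± 0.17, adjusted p = 0.037). It was called lower but lost the call in 5 of 14 alternatives (adjusted p 0.012 to 0.17). Of the others, Rab23, Rab35 and Rab15 were not called (-0.50, 0.32 and 0.36). Rab15 turned to -0.56 without VpR99.

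Of the Rabs listed under endoplasmic reticulum to Golgi and Golgi, 13 were tested, with a median of 0.13. There were 5 rises (38.5%, beside 22.5% of all genes), 1 fall (7.69%, beside 19.7%) and 7 genes not called. The rises include Rab34 and Rab39, for which other roles are given below, so their share rests in part on the listing. Rab1a, which guides vesicles from the endoplasmic reticulum to the Golgi, had 544, 505, 397 and 544 CPM under conditioned media, against 164 and 151 CPM in the controls (1.66 ± 0.20, adjusted p = 0.0017). The lowest conditioned library was VpR126, still above both controls. Its paralog Rab1b had 191, 179, 176 and 186 CPM under conditioned media, against 173 and 165 CPM in the controls, and was not called (0.11 ± 0.13, adjusted p = 0.48). Its direction turned under upper-quartile and library-total scaling (-0.091 and -0.13). Rab2a, another Rab of this step, was level, with 114, 116, 107 and 124 CPM under conditioned media, against 113 and 116 CPM in the controls (0.011 ± 0.13, adjusted p = 0.95). Rab6a, the Rab of transport back through the Golgi, had 92.7, 127, 86.1 and 91.4 CPM under conditioned media, against 101 and 89.8 CPM in the controls, and the groups overlapped (0.060 ± 0.19, adjusted p = 0.82). Rab18, which acts at the endoplasmic reticulum and lipid droplets, rose by 0.57 ± 0.13 (adjusted p = 0.013), with 90.6, 93.5, 95.5 and 104 CPM under conditioned media, against 65.8 and 62.9 CPM in the controls. Its call was lost without either control and under both other scalings (range 0.00052 to 0.11).

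Several genes of this group with fewer counts differed more. Rab34, which positions lysosomes and serves cilia, had 9.44, 6.98, 9.17 and 8.41 CPM under conditioned media, against 1.13 and 0.611 CPM in the controls (3.27 ± 0.37, adjusted p = 0.0015), a 9.61-fold rise that held in all 14 alternatives. Rab39, known for phagosome acidification, had 3.04, 2.03, 5.24 and 4.92 CPM under conditioned media, against 0.833 and 1.08 CPM in the controls (1.99 ± 0.52, adjusted p = 0.023). It lost its call without either control and by voom (range 0.00093 to 0.15). Rab2b had 2.12, 1.1, 3.29 and 1.88 CPM under conditioned media, against 0.467 and 0.705 CPM in the controls (1.84 ± 0.56, adjusted p = 0.037). Its call was lost in 7 of 14 alternatives (range 0.0075 to 0.21), and 59.3% of its exon bases overlap a transcript on the opposite strand. That transcript held 29 counts over all libraries, beside 335 for Rab2b. Tox4, also on the opposite strand, overlaps 4.68% of the exon bases of Rab2b and held 25972 counts. Rab30, a Golgi Rab, was nearly absent under conditioned media, with 0.0366, 0.178, 0.253 and 0.0553 CPM there, against 3.13 and 2.07 CPM in the controls (-4.19 ± 0.62, adjusted p = 0.0035). These are 1, 22, 6 and 1 counts in the conditioned libraries, against 94 and 44 counts in the controls. The Golgi genes Rab6b and Rab33b had 4.72, 2.08, 5.96 and 5.75 CPM and 16.7, 14.8, 21.6 and 19.4 CPM under conditioned media, against 2.47 and 3.48 CPM and 25.1 and 21.6 CPM in the controls. Neither was called (0.63 and -0.37), nor were Rab36 and Rab43 (-0.91 and 0.13). Rab33b was called lower under library-total scaling and Rab36 without VpR126 (adjusted p 0.037 and 0.039). Rab19, which was given no role, was not called (0.24).

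No Rab of regulated secretion rose. Among the 6 tested there were 3 falls (50%, beside 19.7% of all genes), and 3 genes were not called, with a median of -1.09. Rab44, a large Rab with a calcium-binding domain known from granules of leukocytes, had 22.2, 85.7, 51.9 and 29 CPM under conditioned media, against 209 and 201 CPM in the controls (-2.12 ± 0.50, adjusted p = 0.017). The call was lost without either control and with no low-count filter (range 0.00027 to 0.085). Rab3d, a Rab of secretory granules, had 99.9, 123, 83.1 and 107 CPM under conditioned media, against 192 and 207 CPM in the controls (-0.95 ± 0.18, adjusted p = 0.0071, range 4.1e-05 to 0.063). Rab37, known from mast cell granules and secretion by leukocytes, had 2.82, 5.14, 6.84 and 2.99 CPM under conditioned media, against 24.2 and 20.4 CPM in the controls (-2.32 ± 0.38, adjusted p = 0.005), and held in all 14 alternatives. Rab3a, known from synaptic vesicles, had 4.94, 4.005, 5.7 and 5.81 CPM under conditioned media, against 4.43 and 6.53 CPM in the controls, and was not called (-0.10).

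Rab27a, which docks granules of neutrophils and cytotoxic lymphocytes at the plasma membrane, had 44.6, 129, 55 and 48.6 CPM under conditioned media, against 158 and 169 CPM in the controls. All 4 conditioned libraries were below both controls, but VpR99 held 2.35 times the next highest, and the gene was not called (-1.24 ± 0.44, adjusted p = 0.063). It was called lower without VpR99, by DESeq2, by voom and under upper-quartile and library-total scaling, with adjusted p 0.0011 to 0.21 over the alternatives. The same library was highest for Rab44. Summed neutrophil markers put the 4 lines in the same order as both genes did. They were 3632, 18327, 10176 and 6682 CPM under VpR83, VpR99, VpR126 and VpR2020 medium, against 92139 and 84564 CPM in the controls. Single markers did not all follow this order. Among the conditioned libraries Camp, Ltf, Mmp9 and Retnlg were highest in VpR126, and the other markers of the list in VpR99. Of the 14 markers, 9 fell, 5 were not called and none was at 0, and their part in these results was not tested. Mast cell and basophil markers also fell (8 of 8), with summed levels of 18.2 to 103 CPM under conditioned media, against 825 and 915 CPM in the controls, and their part was not tested either.

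Rab27b, the paralog with roles in platelet and mast cell granules, was the member in which the lines differed most. It had 0.11, 0.778, 29.6 and 0.83 CPM under conditioned media, against 2.13 and 1.83 CPM in the controls. Under VpR126 medium it was 35.7 times the next highest line and 14.9 times the control mean, while the other 3 lines lay below both controls. These are 3, 96, 701 and 15 counts in the conditioned libraries, against 64 and 39 counts in the controls. The fitted change of 1.97 ± 2.05 (adjusted p = 0.46) was -1.77 without VpR126 (adjusted p = 0.089) and -0.87 by voom. With 1 library of VpR126 medium this has no replicate check. Summed megakaryocyte markers were 1657 CPM in that library and 790 to 2509 CPM in the other 3 lines, against 75.9 and 84.4 CPM in the controls. Summed mast cell and basophil markers were 103 CPM there and 18.2 to 74.3 CPM in the other 3 lines, against 825 and 915 CPM in the controls. The part of either list was not tested.

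The 9 genes left untested had few counts. Over the conditioned libraries they held 31 counts of Rab17, 43 of Rab25, 4 of Rab3b, 4 of Rab40b, 4 of Rab3c, 23 of Rab26, 87 of Rab33a, 1 of Rab39b and 1 of Rab9b. Over the controls they held 21 counts of Rab17, 17 of Rab25, 5 of Rab3b, 8 of Rab40b, 1 of Rab3c, 4 of Rab26, 7 of Rab33a, 8 of Rab39b and 0 of Rab9b. Rab17 and Rab25, known from epithelial cells, and Rab3b, Rab3c and Rab26, known from neurons and glands, had at most 43 counts over the conditioned libraries and 21 over the controls.

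Most Rab genes had similar levels under the 4 conditioned media. In 33 of the 50 tested genes the 4 conditioned libraries lay within 1 log2 unit, and in the other 17 (34.0%, beside 39.7% of all genes) they did not. The median spread over lines was 0.56 log2 units, beside 0.78 for all genes. Rab7b made the largest rise over the control mean in every line. Rab30 made the largest fall under VpR83, VpR99 and VpR2020 medium, and Rab4a under VpR126 medium. VpR126 was the highest of the lines for 12 of the 17 widely spread genes and VpR99 for the other 5. VpR99 was the lowest for 7, VpR83 for 6, VpR126 for 3 and VpR2020 for 1. On log2 CPM no Rab gene had 1 conditioned library set apart by Dixon's ratio (0 of 50, beside 4.66% of all genes), and on CPM 5 of 50 did (beside 7.07%). With 1 library per line these orders have no test.

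**Figure D3:**
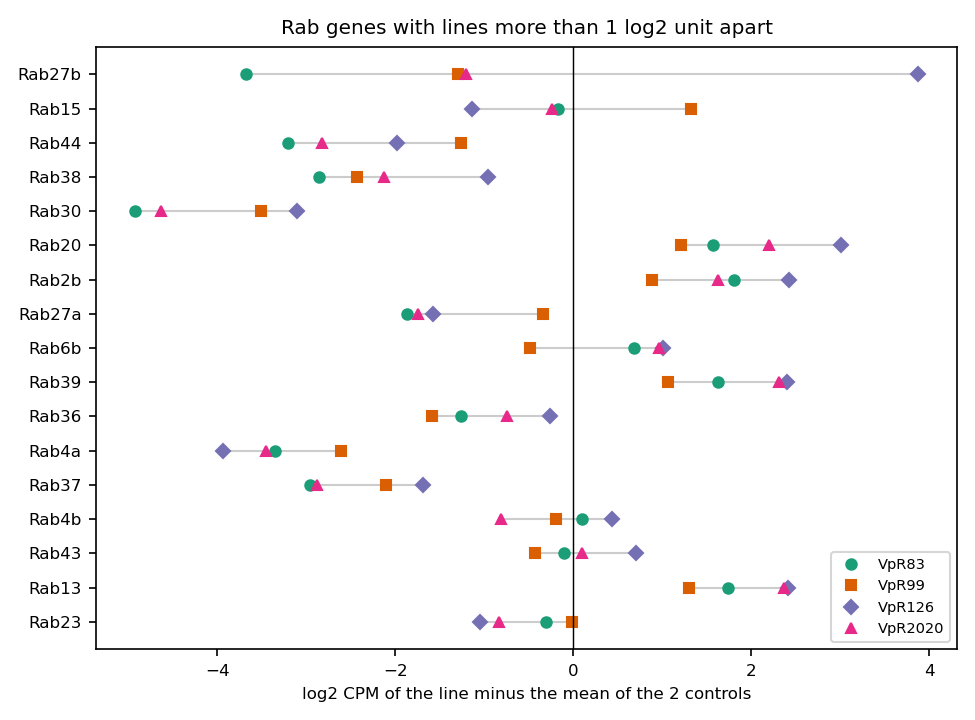
Log2 CPM of each conditioned library minus the mean of the 2 controls (x axis, log2 units) for the 17 Rab genes whose lines lay more than 1 log2 unit apart, widest at the top. Rab27b spans 7.54 log2 units, with VpR126 alone to the right of 0.

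Within several pairs of paralogs the ratios of the groups did not overlap. The log2 ratio of counts within a library does not depend on scaling, and 13 pairs had both genes tested. Rab7b over Rab7 was -1.28, -1.61, -1.69 and -2.05 under conditioned media, against -5.11 and -5.53 in the controls, a mean difference of 3.66 log2 units. Rab8b over Rab8a was 1.78, 1.29, 2.04 and 1.96 under conditioned media, against -0.27 and -0.36 in the controls. Rab1a over Rab1b was 1.51, 1.50, 1.17 and 1.55 under conditioned media, against -0.07 and -0.14 in the controls. In the last 2 pairs the more counted gene differed between the groups. Per exon length, Rab8b stood at 2.42 to 4.07 times Rab8a under conditioned media, against 0.769 and 0.818 times in the controls. The per-length ratio of Rab1a over Rab1b was 1.35 to 1.75 under conditioned media, against 0.545 and 0.568 in the controls.

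Ratios that moved down were Rab38 over Rab32, at -7.58, -7.05, -5.62 and -7.29 under conditioned media, against -3.46 and -3.57 in the controls, and Rab4a over Rab4b, at -1.66, -0.61, -2.62 and -0.83 under conditioned media, against 1.50 and 2.18 in the controls. Rab11b over Rab11a and Rab2a over Rab2b were also lower, by mean differences of -0.75 and -1.72, and Rab31 over Rab22a was higher by 0.50. These 8 pairs reached p = 0.0667 in an exact permutation test, the smallest that 2 against 4 libraries allow, or 0.108 adjusted over the 13 pairs, so no pair could pass the threshold. Rab3a over Rab3d differed by 0.88 (exact p = 0.133). The ratios of Rab5a to Rab5b and Rab5c, of Rab6a to Rab6b and of Rab27b to Rab27a overlapped between the groups (exact p = 0.267 to 0.867).

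**Figure D4:**
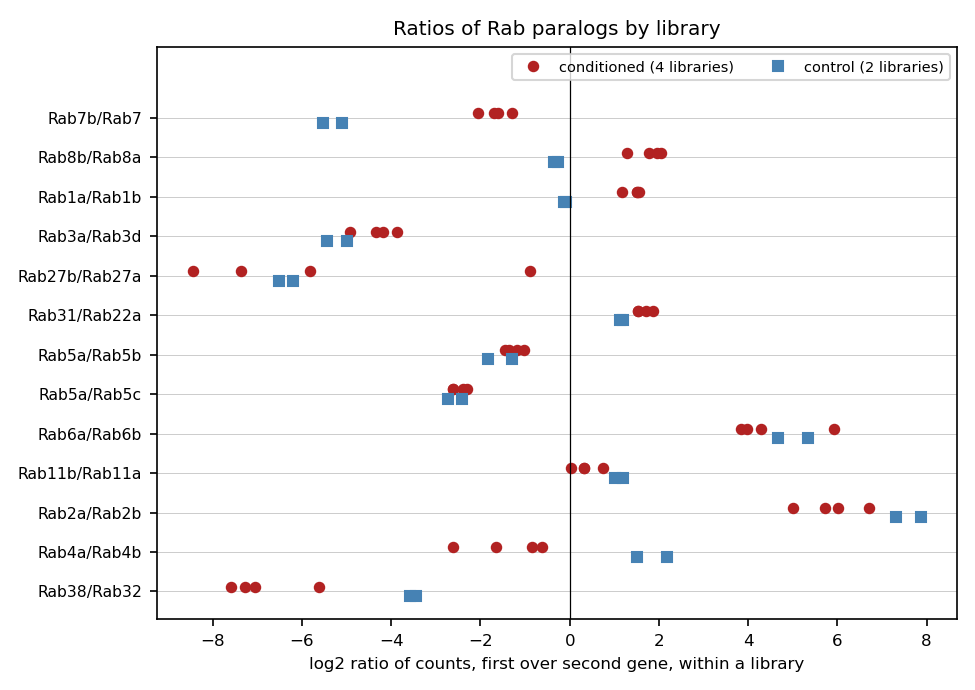
Log2 ratio of counts of the first over the second gene of 13 Rab pairs within each library (x axis); red circles are the 4 conditioned libraries and blue squares the 2 controls. Rab7b/Rab7 at the top is separated by 3.66 log2 units on average, and Rab8b/Rab8a and Rab1a/Rab1b lie on opposite sides of 0 in the 2 groups.

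Levels of different genes were compared per exon length (TPM-like, summing to the same total in each library). Rab7 had the highest mean level in both groups, at 609 ± 56.7 under conditioned media and 243 ± 10.8 in the controls (SD, n = 4 and 2). Rab5c came next, at 458 ± 39.3 under conditioned media and 233 ± 3.83 in the controls. The libraries of this pair did not overlap under conditioned media but overlapped in the controls. Below them the order differed between the groups. Under conditioned media Rab1a (381 ± 61.3), Rab8b (298 ± 40.6) and Rab32 (247 ± 42.4) followed, each overlapping its neighbours. In the controls Rab1b (187 ± 4.29), Rab2a (135 ± 9.84) and Rab3d (119.8 ± 13.0) followed, of which Rab2a and Rab3d overlapped. The first 5 genes held 45.5% to 49.5% of the summed Rab level under conditioned media, against 38.6% and 38.9% for the first 5 in the controls. With the length of the longest coding transcript, Rab1a and Rab5c changed places under conditioned media (374 and 373) and Rab1b (203) took the fifth place from Rab32 (196). In the controls Rab24 (126) and Rab1a (104) then took the fourth and the fifth place, ahead of Rab2a (99.98) and Rab3d (95.8), so the order below Rab1b rests on the choice of length.

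Regulators of Rabs were counted from lists of 31 GEFs, 36 GAPs, 44 effectors, 10 genes of the membrane cycle and 8 tethers. The CORVET and HOPS tethers, complexes that join endosomes and lysosomes under Rab5 and Rab7, had 7 of 8 genes higher (87.5%, beside 22.5% of all genes), none lower (beside 19.7%) and a median log2 fold change of 1.44. Vps33a had 123, 103, 138 and 146 CPM under conditioned media, against 37 and 38.6 CPM in the controls (1.76 ± 0.19, adjusted p = 0.0013). The CORVET subunit genes Tgfbrap1 and Vps8 rose by 1.72 ± 0.27 and 1.60 ± 0.20, and only Vps16 was not called (-0.36, adjusted p = 0.061). Without either control 6 tethers were called higher.

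Of the 31 GEFs, 11 rose (35.5%, beside 22.5% of all genes), 6 fell (19.4%, near the 19.7% of all genes) and 14 were not called, with a median of 0.30. Dennd4c, an exchange factor for Rab10, had 145, 106, 91.5 and 115 CPM under conditioned media, against 14.5 and 12.1 CPM in the controls (3.10 ± 0.25, adjusted p = 0.00065). Rab3il1, an exchange factor for Rab8, and Rin2, one for Rab5, rose by 2.42 ± 0.36 and 2.38 ± 0.24. Dennd3, an exchange factor for Rab12, Dennd2d and Dennd6b changed by -1.56 ± 0.42, -1.30 ± 0.21 and -1.10 ± 0.27. Without either control, 7 GEFs were called higher and 1 lower, and 3 and 2 were called lower without VpR83 and VpR2020. Of the 36 GAPs, 18 rose (50%, beside 22.5% of all genes), 3 fell (8.33%, beside 19.7%) and 15 were not called, with a median of 0.73. Tbc1d9, Tbc1d16 and Tbc1d4, the last a GAP for Rab10, rose by 3.24 ± 0.31, 3.17 ± 0.73 and 2.58 ± 0.75. Tbc1d10c, known from lymphocytes, fell to 6.22, 14.4, 17.8 and 8.57 CPM under conditioned media, against 84.1 and 105 CPM in the controls (-3.01 ± 0.41, adjusted p = 0.0027). Usp6nl, a GAP for Rab5, and Rabgap1l changed by -1.61 ± 0.33 and -1.36 ± 0.45. Without either control, 4 GAPs were called higher and 1 lower.

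Among the 40 effectors tested there were 19 rises (47.5%, beside 22.5% of all genes), 7 falls (17.5%, near the 19.7% of all genes) and 14 not called, with a median of 0.54. Rilp, which links Rab7 to the dynein motor, had 3.62, 2.88, 6.17 and 4.26 CPM under conditioned media, against 0.267 and 0.564 CPM in the controls (3.36 ± 0.55, adjusted p = 0.0047). The Rab5 effector gene Appl2 and the Rab11 effector gene Rab11fip5 rose by 3.30 ± 0.24 and 3.22 ± 0.29. The 3 largest falls were effectors of secretory Rabs. Rph3al, Sytl2 and Sytl1 changed by -3.52 ± 0.37, -3.50 ± 0.78 and -3.24 ± 0.49. Sytl1, a synaptotagmin-like partner of Rab27, had 0.769, 3.33, 2.07 and 1.88 CPM under conditioned media, against 20.4 and 18.4 CPM in the controls. Without control replicate 1 or 2, 12 and 11 effectors were called higher and 4 lower, and without VpR126 11 were called lower.

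Of the genes of the membrane cycle, 3 of 10 were called higher and 2 lower, with a median of -0.06. These shares (30% and 20%) lay near those of all genes (22.5% and 19.7%). Gdi2, whose product lifts inactive Rabs off membranes, had 672, 612, 679 and 861 CPM under conditioned media, against 412 and 399.9 CPM in the controls (0.80 ± 0.19, adjusted p = 0.018). Chm, a Rab escort protein gene, and Icmt, a methyltransferase of prenylated proteins, rose by 1.51 ± 0.18 and 0.46 ± 0.13. Rabggtb, a subunit of the enzyme that attaches the lipid anchor, changed by -0.88 ± 0.17. Without either control 1 gene was called higher, and 0 or 1 lower. Without VpR2020 1 was called lower.

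The promoters of Rab5a and Rab21 are shown because both hold the CLEAR sequence of lysosomal genes (CACGTG with GT before and AC after it), while Rab5a was called higher and Rab21 was not. Each line gives the 250 bases before the gene start, 5′ to 3′, from RefSeq (GRCm38.p6), and capitals mark CACGTG or the CLEAR sequence.
Rab5a, chr17:53478984-53479233, plus strand: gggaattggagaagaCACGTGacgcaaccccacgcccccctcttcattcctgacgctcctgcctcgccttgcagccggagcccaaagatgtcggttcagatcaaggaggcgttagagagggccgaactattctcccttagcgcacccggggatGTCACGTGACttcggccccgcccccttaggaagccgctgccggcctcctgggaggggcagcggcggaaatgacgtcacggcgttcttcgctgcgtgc
Rab21, chr10:115315592-115315841, minus strand: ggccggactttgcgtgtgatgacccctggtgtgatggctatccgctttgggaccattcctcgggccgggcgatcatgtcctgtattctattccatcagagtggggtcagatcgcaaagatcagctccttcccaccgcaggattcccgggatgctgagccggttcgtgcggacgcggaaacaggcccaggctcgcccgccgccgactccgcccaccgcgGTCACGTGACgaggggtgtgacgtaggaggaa
Of the Rab genes, 48 matched the promoter table by symbol. Searched on both strands, CACGTG (the E-box) stood in 5 of the 48 (10.4%, Rab5a, Rab20, Rab21, Rab23 and Rab27a), beside 6.86% of 27025 genes. The CLEAR sequence, which contains the E-box, stood in Rab5a and Rab21 (4.17%), beside 0.270% of all. GAGGAAGT, a sequence bound by the myeloid factor PU.1, stood in Rab2b and Rab32 (4.17%, beside 2.79%), and TGANTCA (AP-1) in Rab15 and Rab34 (4.17%, beside 7.82%). Of the 20 matched genes called higher, 2 held the E-box, as did 3 of the 18 not called and neither of the 2 called lower. These matches are descriptions of the letters, not of binding.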

How the data were processed

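The members and the lists of partner and marker genes were chosen with earlier results of these data known. Each Rab gene was placed under a single role from a prepared list, or under none, so a gene with several roles counts in a single group. Libraries were made with a stranded kit, per the labels' protocols, and the submitters' processing notes name Trimmomatic 0.38, STAR 2.5.2b and the build GRCm38. How reads were counted (tool, strand setting, annotation) and their length is not given in the sources used. The authors deposited raw, unnormalized read counts by Ensembl gene. Of 45706 identifiers, 45143 matched GENCODE M21, and unmatched ones held 0.0538% to 0.0828% of a library's counts.

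The main test was that of edgeR 4.0.16 in R 4.3.3 (filterByExpr with a minimum count of 10, TMM, robust quasi-likelihood test, two-sided, Benjamini-Hochberg over 15141 genes, called below 0.05). The 4 lines served as replicates of conditioned medium. SE is the absolute log2 fold change over the square root of F, and the means ± SD are over libraries. CPM use TMM-scaled totals, and log2 CPM a prior count of 2. Per-length levels use the union of exons. Paralog ratios, with 0.5 counts added, were tested by an exact two-sided permutation test over 15 assignments. Genes were named when called (largest changes), most abundant, in a paralog pair, or an anchor of a pathway. From each partner list, the 3 largest called rises and falls were named, except 1 gene that is not reported here. A count of 0 allows up to 3 counts, or 0.0232 to 0.161 CPM by library, and floors and intervals cover counting error only. Of the 15 library pairs, the 2 controls were most alike, at a chi-square of 31.2 for each degree of freedom, so no library repeated another. Alternatives were RLE, upper-quartile and library-total scaling, DESeq2 1.42.0, voom in limma 3.58.1, no robust shrinkage, no low-count filter, VpR99 thinned, and each library left out in turn. The fit was tested on simulated data. Promoter sequences are from RefSeq.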

Additional observations from a re-analysis of the deposited data

Results flagged for a closer look

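In 5 of the 50 tested Rab genes, 1 conditioned library lay far from the other 3 on the CPM scale, by Dixon's ratio of the gap to the range at its 95% critical value. The CPM scale was added after seeing the data, and on log2 CPM no Rab gene stood out (0 of 50, beside 4.66% of all genes). On CPM 7.07% of all genes stood out, and chance alone gives about 1 in 20 groups. Rab6a was at 127 CPM in VpR99, Rab8a at 163 CPM in VpR99 and Rab27a at 129 CPM in VpR99. Rab32 was at 255 CPM in VpR2020. Rab27b was at 29.6 CPM in VpR126, against 1.98 ± 0.21 CPM in the controls (SD, n = 2).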

How the results depend on the processing

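With 2 control libraries, the counts of calls rested on both. Over the fits that left out 1 library, Rab genes called higher ranged from 9 to 22 and lower from 3 to 9, all genes higher from 1307 to 3626 and lower from 985 to 3346. Called GEFs ranged from 7 to 11 higher and 1 to 7 lower, GAPs from 4 to 21 and 1 to 4, effectors from 11 to 20 and 4 to 11, membrane cycle genes from 1 to 4 and 0 to 2, and tethers from 6 to 7 and 0 to 0. A fit without 1 control assumes that the lone control varies like the conditioned libraries. Library-total scaling gave 11 Rab genes lower, and calls were then 60.7% higher among Rab genes and 38.6% among all genes, beside 75.9% and 53.3% with TMM. Upper-quartile scaling gave 63.0% and 40.0%. No called Rab gene changed direction in the 14 alternatives. Sign changes occurred in 10 genes that were not called, and their cause was not tested. Rab2a was at -0.0044 (RLE), -0.20 (upper quartile), -0.23 (library totals), -0.0047 (DESeq2), -0.017 without control replicate 1 and -0.027 without VpR2020, with -0.027 to 0.045 over the libraries left out. Rab19 was at -0.016 (library totals) and -0.041 without control replicate 1, with -0.041 to 0.57 over the libraries left out. Rab43 was at -0.077 (upper quartile), -0.12 (library totals) and -0.13 without VpR126, with -0.13 to 0.27 over the libraries left out. Rab6a was at -0.15 (upper quartile), -0.18 (library totals), -0.020 without control replicate 2 and -0.080 without VpR99, with -0.080 to 0.14 over the libraries left out. Rab21 was at -0.14 (upper quartile), -0.18 (library totals) and -0.029 without VpR99, with -0.029 to 0.11 over the libraries left out. Rab1b was at -0.091 (upper quartile) and -0.13 (library totals). Rab4b was at 0.14 without control replicate 1 and 0.12 without VpR2020, with -0.27 to 0.14 over the libraries left out. Rab3a was at 0.20 without control replicate 2 and 0.0018 without VpR99, with -0.36 to 0.20 over the libraries left out. Rab15 was at -0.56 without VpR99, with -0.56 to 0.66 over the libraries left out. Rab27b was at -0.87 (voom) and -1.77 without VpR126, with -1.77 to 2.38 over the libraries left out. DESeq2 gave no adjusted p for Rab27b. No paired analysis was possible because the conditioned libraries carry no replicate numbers in the labels.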
